A study of Mus musculus with 5 samples.

Results

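Kinesins are motor proteins that use ATP to move along microtubules or to take them apart. The family was followed here in mouse CD4+ T cells activated in the animal by a tumor and in their naive counterparts. Members were all probe sets of the array whose single gene symbol is Kif or Kifc followed by a digit. These were 104 probe sets for 41 genes, of 34945 probe sets with 1 symbol for 18193 genes. By textbook role 14 genes were placed with the mitotic kinesins, 15 with the transport kinesins and 12 with neither.

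The 3 activated samples were tumor-specific CD4+ T cells, sorted as GB113+ at a purity of at least 95% from pooled axillary lymph nodes of mice given 100000 MOPC315 myeloma cells under the skin in 250 µl of Matrigel, on day 8. The 2 naive samples were the same kind of T cell from pooled lymph nodes of mice that received no tumor. All mice were 7 to 12 weeks old, on a Balb/c background, and carried the transgenic T cell receptor on a SCID background, in which few other lymphocytes are made. Between 12 and 15 mice were pooled for an activated sample, each sample was an experiment of its own, and no group given Matrigel without tumor cells was analysed here. The values are probe set intensities on a linear scale. Precision is limited by having 3 arrays against 2.

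In a dividing cell, mitotic kinesins build the spindle, align and separate the chromosomes and lead the cleavage of the cell. Transport kinesins carry vesicles, organelles and protein complexes toward the ends of microtubules in resting and dividing cells alike. Naive T cells are in quiescence, and activation through the T cell receptor brings them into rapid division. T cells also polarise their microtubules toward the cell they contact, and kinesin-1 moves secretory granules to that contact in cytotoxic T cells.

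All 7 T cell markers with a probe set were above the filter intensity on every array, with Cd4 at 915.4 to 1119 on activated arrays and 732.6 to 778.2 on naive arrays. Of the 7 only Cd5 passed the test. It rose, with 926.1, 1117.7 and 1241.2 on activated arrays, against 304.9 and 275.1 on naive arrays. The filter intensity, below which a probe set counted as dim, was 10.5 to 13.4 among the arrays. The summed intensity of 6 B cell markers was 48.6 to 94.6 on activated and 62.4 to 65.3 on naive arrays, and that of 7 plasma cell markers was 93.3 to 161.9 on activated and 90.8 to 93.1 on naive arrays. Of these plasma cell markers Derl3 rose, while Tnfrsf17 was at most 6.4 on every array. Sdc1 went the other way, with 7.8, 4.8 and 1.5 on activated arrays, against 21.2 and 21.1 on naive arrays, and did not pass the test. For Jchain, Igha, Mzb1 and Iglv1 the groups overlapped. Activated replicate 1 stood apart, with a summed intensity of 2588 for 6 myeloid markers and 1059 for 4 NK cell markers. The myeloid sum was 121 and 731.3 on the other activated arrays, against 287.5 and 168.2 on naive arrays. The NK cell sum was 308 and 459.9 on the other activated arrays, against 170.2 and 69.7 on naive arrays. Most of each NK cell sum was Eomes, at 696.4, 281.6 and 440.9 on activated arrays, against 154.9 and 43.4 on naive arrays. Ncr1 was 265.3 and Klre1 93.9 on activated replicate 1. On the other activated arrays Ncr1 was 9.9 and 5.9, against 5.6 and 11.2 on naive arrays. Klre1 was 15.8 and 12.4 there, against 9.4 and 14.3. The sum of 5 dendritic cell markers was 183.6 on activated replicate 1 and 96.4 and 61.8 on the other activated arrays, against 63.1 and 66.2 on naive arrays. Among these Itgax and Siglech were above both naive arrays on every activated array, where 16.5% of all genes were, and neither passed the test. Xcr1, which was not tested, was below both naive arrays on every activated array, where 18.1% of all genes were. For Flt3 and Zbtb46 the groups overlapped. Eomes, a transcription factor of NK cells that T cells also use, was the only NK marker that rose. Of the CD8 T cell markers Cd8b1 fell, with 326.5, 246.8 and 275.0 on activated arrays, against 797.6 and 995.7 on naive arrays, and of the stromal markers the endothelial Pecam1 rose.

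Activated cells had a higher signal for 7 of the 14 mitotic kinesins. Kif2c, Kif11, Kif4, Kif20a, Kif22, Kif18b and Kif18a rose, by 1.24 to 2.75 on the scale of log2(intensity + 16), and no mitotic kinesin fell. That is 7 of 14 mitotic genes higher by limma's moderated test, with Benjamini-Hochberg adjusted p-values held to 0.05, where 6.36% of the 12873 genes tested were higher. Of the 15 transport genes 0 were higher and 0 lower, a count near the share of all tested genes, 6.36% higher and 4.14% lower. It rests on 1 probe set per gene, and Kif3b passed when its probe sets were averaged (adjusted p = 0.042). A gene was tested when its probe set was above the 40th percentile of the array on at least 2 arrays, and 11 mitotic and all 15 transport genes were. A mitotic gene could pass this filter through the activated arrays alone, as Kif2c, Kif4, Kif20a and Kifc5b did, so the same fit was made on all genes without the filter. It called 6 of 14 mitotic genes higher, where 3.42% of all 18193 genes were, and Kif18a was the gene that lost its call, with an adjusted p of 0.094. More dividing cells and more RNA of a kind per cell cannot be told apart in these pooled samples. With activated replicate 1 left out, 8 mitotic genes were called, those above and Kif20b. Activated replicate 3 also had a higher myeloid sum than either naive array, and the part of other cell types in these results was not tested.

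**Figure D1:**
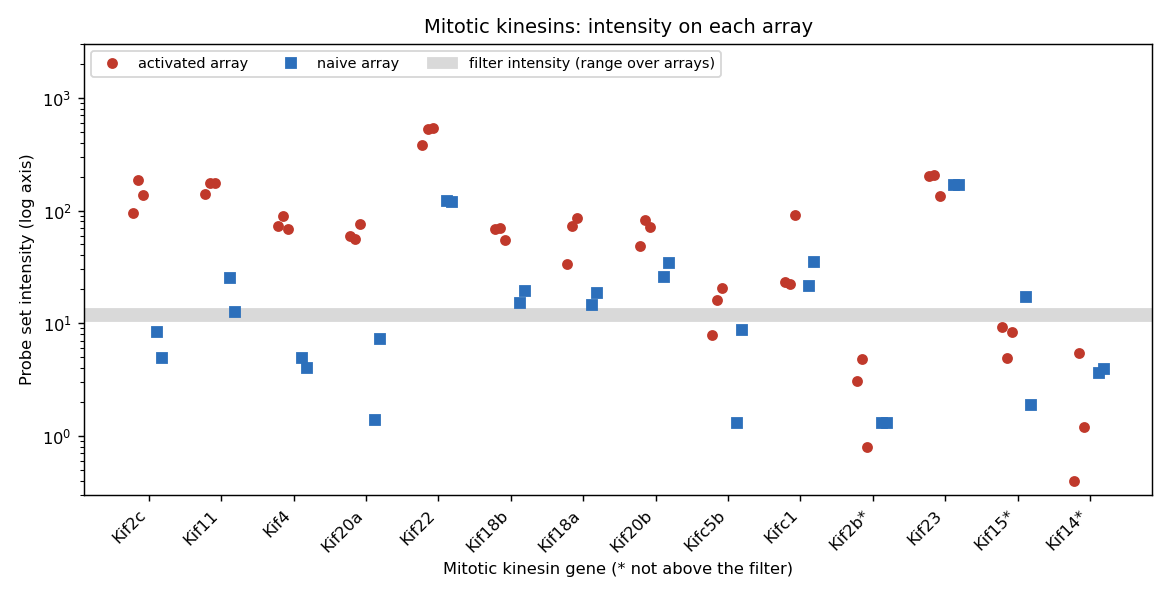
Probe set intensity, on a log axis, of the 14 mitotic kinesins on each array, with activated arrays as red circles left of naive arrays as blue squares. The grey band is the filter intensity of 10.5 to 13.4; the activated arrays lie above both naive arrays for 8 genes, Kif2c to Kif20b, and an asterisk marks the 3 genes not above the filter.

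The promoters of the kinesins were read for letters that the rule for members did not use. The cell cycle genes homology region, or CHR, is a short promoter element known from genes of late cell cycle phases, where the DREAM and MuvB complexes bind it, and it often lies beside CCAAT boxes, which the factor NF-Y binds. RefSeq promoters of build GRCm38.p6, from 250 bases before to 50 after the annotated start, were read for 33 of the 41 genes. The riser Kif20a and the transport kinesin Kif5b were among the genes not read. The promoters were searched on both strands for CHR, spelled TTTGAA or TTCGAA, and for CCAAT. The choice of these elements was made knowing that mitotic genes rise in these cells. Of 13 mitotic kinesin promoters 11 held a CHR match, of 12 transport kinesin promoters 1 did, of 12 promoters of the other kinesins 3 did, and 19.2% of all 32851 promoters did. A CCAAT match stood in 9 of the 13 mitotic, 4 of the 12 transport and 4 of the 12 other promoters, against 37.4% of all promoters. Both elements stood in 8 of the 13 mitotic, 0 of the 12 transport and 3 of the 12 other promoters, against 7.52% of all, and no CHR match of a kinesin shared letters with a CCAAT match. These promoters are not all independent. Kifc1 had CCAAT matches at -74 and -45 and a CHR match at 2, spaced as in its near relative Kifc5b, at -46, -17 and 30. The 4 transport promoters with a CCAAT match were of 3 genes, since both annotated starts of Kif1b were counted. A match is a run of letters and not a shown binding site.

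The promoters of the 6 risers that were read are printed to show where the letters lie, with that of the transport kinesin Kif3b beside them. Each runs 5′ to 3′ on the gene's strand, from 120 bases before the start through the first 30 bases after it, and capitals mark CHR (TTTGAA, or TTCAAA read from the other strand) and CCAAT (or ATTGG) matches.
Kif2c, chr4:117178743-117178892, minus strand: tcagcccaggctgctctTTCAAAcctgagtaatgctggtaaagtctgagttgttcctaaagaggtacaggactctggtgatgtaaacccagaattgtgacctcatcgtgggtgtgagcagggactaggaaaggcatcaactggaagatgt
Kif11, chr19:37376262-37376411, plus strand: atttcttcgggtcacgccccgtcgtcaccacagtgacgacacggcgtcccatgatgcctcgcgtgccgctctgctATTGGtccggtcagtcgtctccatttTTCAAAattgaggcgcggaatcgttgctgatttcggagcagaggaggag
Kif4, chrX:100625945-100626094, plus strand: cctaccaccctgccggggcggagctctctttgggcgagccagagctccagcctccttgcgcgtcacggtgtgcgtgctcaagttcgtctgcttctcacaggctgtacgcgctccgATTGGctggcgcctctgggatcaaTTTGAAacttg
Kif22, chr7:127042391-127042540, minus strand: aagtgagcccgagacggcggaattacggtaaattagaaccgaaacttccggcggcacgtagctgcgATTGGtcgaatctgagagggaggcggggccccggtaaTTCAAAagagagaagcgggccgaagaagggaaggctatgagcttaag
Kif18b, chr11:102925095-102925244, minus strand: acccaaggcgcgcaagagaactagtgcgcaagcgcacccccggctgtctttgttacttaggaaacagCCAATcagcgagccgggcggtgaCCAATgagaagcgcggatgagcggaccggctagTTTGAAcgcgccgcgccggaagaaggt
Kif18a, chr2:109280618-109280767, plus strand: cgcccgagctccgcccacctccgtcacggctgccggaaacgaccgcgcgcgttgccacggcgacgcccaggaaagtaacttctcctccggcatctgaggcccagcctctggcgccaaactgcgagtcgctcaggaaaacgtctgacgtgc
Kif3b, chr2:153291296-153291445, plus strand: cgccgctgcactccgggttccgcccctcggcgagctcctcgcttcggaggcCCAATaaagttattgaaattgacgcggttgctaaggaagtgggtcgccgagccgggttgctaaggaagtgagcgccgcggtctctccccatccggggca
Within the printed stretch, in Kif11 the CCAAT match began at position -45 and the CHR match at -19, counted from the start as 1, and in Kif22 they began at -54 and -17. In Kif18b CCAAT matches began at -53 and -30 and the CHR match at 4. In Kif4 the CCAAT match began at -5 and the CHR match at 20. Kif2c had a CHR match at -103 and no CCAAT match in the window, and Kif18a held neither in these letters. Among mitotic kinesins that did not pass the test, Kif23 had a CCAAT match at -7 and a CHR match at 3, and Kif20b had CHR matches at 8 and 14.

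**Figure D2:**
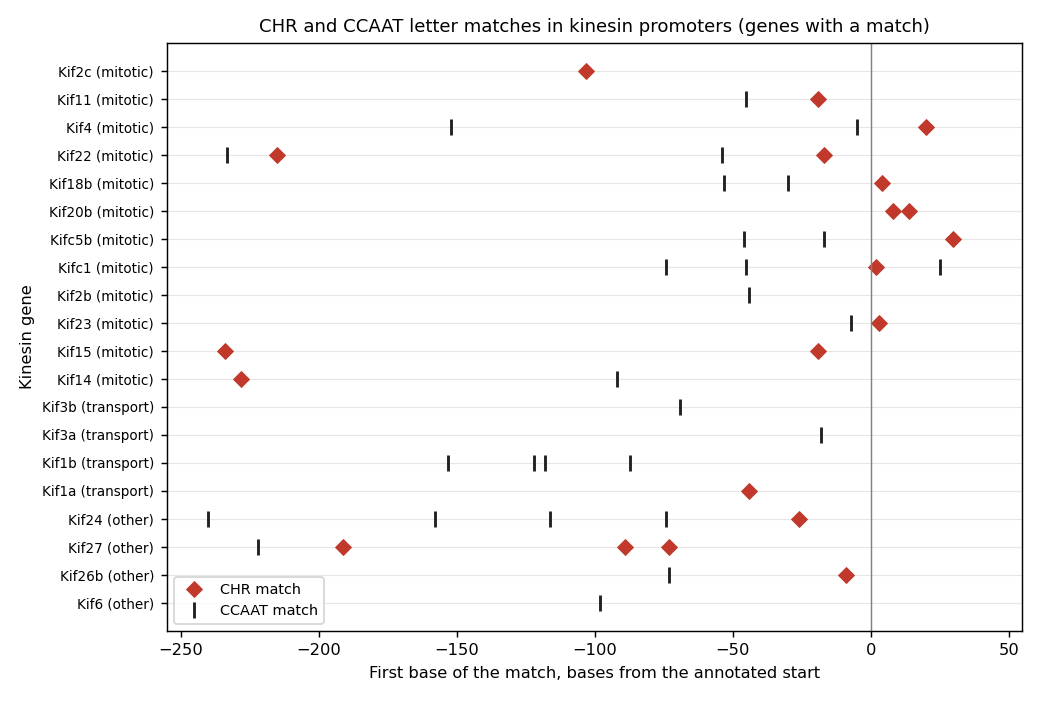
First base of each CHR match (red diamonds) and CCAAT match (black bars), in bases from the annotated start, in the promoters of kinesin genes with at least 1 match; both annotated starts of Kif1b are drawn. A CHR match stands in 11 of 13 mitotic and 1 of 12 transport promoters.

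Among the spindle motors, Kif11 is the kinesin-5 that pushes the spindle poles apart by sliding microtubules. Its intensities were 139.0, 174.3 and 175.9 on activated arrays, against 25.3 and 12.6 on naive arrays. All activated arrays lay far above both naive arrays, and the groups did not overlap. The log2 fold change was 2.37 ± 0.22 (SE, adjusted p = 9.1e-05). Its other probe sets gave 2.13 and 1.93 in a fit in which each probe set was its own unit, and both passed. Kif15, a kinesin-12 that can hold the spindle open when Kif11 fails, had its single probe set at 4.9 to 9.3 on activated arrays and at 17.2 and 1.9 on naive arrays. These values lay below the filter intensity on 4 of the 5 arrays, so Kif15 was not tested.

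Kif2c, also called MCAK, is a kinesin-13 that removes wrong attachments of chromosomes by taking microtubule ends apart. It had 95.3, 188.1 and 138.7 on activated arrays, against 8.3 and 4.9 on naive arrays, which were both below the filter intensity. It rose by 2.75 ± 0.26 on the log2 scale (SE, adjusted p = 1.1e-04). With naive arrays this dim the size is set in part by the pseudocount: it was 4.20 with a pseudocount of 1 and 1.51 with 64, and the call held under both. Its place among the risers moved with the setting too, since Kif22 had 1.56 with a pseudocount of 64, and Kif4 had 2.17 against 1.67 for Kif2c when each gene's probe sets were averaged. The probe set used for Kif2c carries a suffix for sequence shared with other transcripts. On 2 other probe sets Kif2c rose by 1.74 and 1.72. The fourth had 34.2, 26.7 and 19.4 on activated and 18.3 and 11.9 on naive arrays (log2 fold change 0.45, adjusted p = 0.33). Kif2b, its relative in spindles, was at 0.8 to 4.8 on activated and at 1.3 on both naive arrays, below the filter on all of them.

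The chromokinesins, which ride on chromosome arms, both rose. Kif22, known as Kid, pushes chromosome arms toward the spindle's middle. It had 382.6, 524.2 and 539.9 on activated arrays, against 120.4 and 118.6 on naive arrays, and rose by 1.86 ± 0.19 on the log2 scale (SE, adjusted p = 1.5e-04). The groups did not overlap, and on this probe set both naive arrays lay well above the filter intensity. It carries a suffix for sequence shared with other transcripts. The other 2 probe sets of Kif22 rose by 2.19 and 2.29. Their naive arrays were dimmer, at 5.2 and 1.1, below the filter intensity, and at 14.7 and 15.7, a little above it. Kif4, which also shortens the microtubules of the central spindle together with Prc1, had 73.2, 88.6 and 68.2 on activated arrays, against 4.9 and 4.0 on naive arrays, both below the filter intensity. Its log2 fold change was 2.17 ± 0.22 (SE, adjusted p = 1.5e-04), 3.83 with a pseudocount of 1 and 1.04 with 64.

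The kinesin-8 motors act at the plus ends of spindle microtubules, where Kif18a helps to align chromosomes, and both rose. Kif18b had 68.2, 69.4 and 54.9 on activated arrays, against 15.2 and 19.5 on naive arrays, and rose by 1.26 ± 0.22 on the log2 scale (SE, adjusted p = 0.0040). Kif18a had 33.4, 72.4 and 86.3 on activated arrays, against 14.4 and 18.5 on naive arrays, and rose by 1.24 ± 0.31 on the log2 scale (SE, adjusted p = 0.028). The groups did not overlap for either gene, but activated replicate 1 had a Kif18a signal well below those of the other activated arrays. The call of Kif18a was lost without the filter, at 1.24, with the mean of all its probe sets, at 0.81, and when activated replicate 2, activated replicate 3, naive replicate 1 or naive replicate 2 was left out, at 1.13, 1.03, 1.15 and 1.33. Its second probe set, at 6.6, 7.5 and 7.7 on activated and 0.6 and 3.3 on naive arrays, was below the filter.

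Of the kinesin-6 motors of cytokinesis, Kif20a rose and Kif20b and Kif23 did not pass the test. Kif20a, known as MKLP2, carries the chromosomal passenger complex to the central spindle. It had 59.5, 55.5 and 76.1 on activated arrays, against 1.4 and 7.3 on naive arrays, which were both below the filter intensity. Its log2 fold change was 1.98 ± 0.24 (SE, adjusted p = 5.5e-04), 3.84 with a pseudocount of 1 and 0.90 with 64. Kif20b had 48.1, 83.2 and 70.8 on activated arrays, against 25.9 and 34.4 on naive arrays, and did not pass (log2 fold change 0.84, adjusted p = 0.054), although its groups did not overlap. Kif20b passed with the filter at the 60th percentile, with robust variances, without activated replicate 1 and with a block for the hybridisation control bioC (adjusted p = 0.049, 0.044, 0.028 and 0.035). Its other 2 probe sets above the filter had log2 fold changes of 0.34 and -0.03.

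Kif23, or MKLP1, forms centralspindlin with Racgap1, and its probe sets differed. The one used for the gene had 203.7, 207.3 and 135.1 on activated arrays and 169.1 and 168.4 on naive arrays, so the groups overlapped, for a log2 fold change of 0.08 (adjusted p = 0.87). A second had 52.5, 80.6 and 56.8 on activated arrays, against 41.9 and 29.6 on naive arrays, and a log2 fold change of 0.61 (adjusted p = 0.16). The remaining one was at 7.3 to 8.9 on activated and 6.5 and 0.8 on naive arrays, dim throughout. The probe sets of Kif23 thus differed in whether the groups overlapped. Its partner Racgap1, named after its values were seen, rose, with 151.5, 218.5 and 189.0 on activated arrays, against 52.9 and 25.2 on naive arrays (log2 fold change 1.91, adjusted p = 7.6e-04).

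Kifc1, the minus-end motor that gathers spindle poles, was high on 1 activated array. It had 23.4, 22.2 and 91.7 on activated arrays, against 21.4 and 35.0 on naive arrays, for a log2 fold change of 0.32 (adjusted p = 0.70) that was -0.17 without activated replicate 3. Its probe set carries the suffix for sequence shared with other transcripts. Kifc5b, a near relative of Kifc1, had 7.9, 16 and 20.6 on activated arrays and 1.3 and 8.8 on naive arrays (log2 fold change 0.55, adjusted p = 0.32). Kif14, which acts in cytokinesis with citron kinase, had 0.4 to 5.4 on activated and 3.6 and 3.9 on naive arrays from a single probe set and was not tested.

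**Figure D3:**
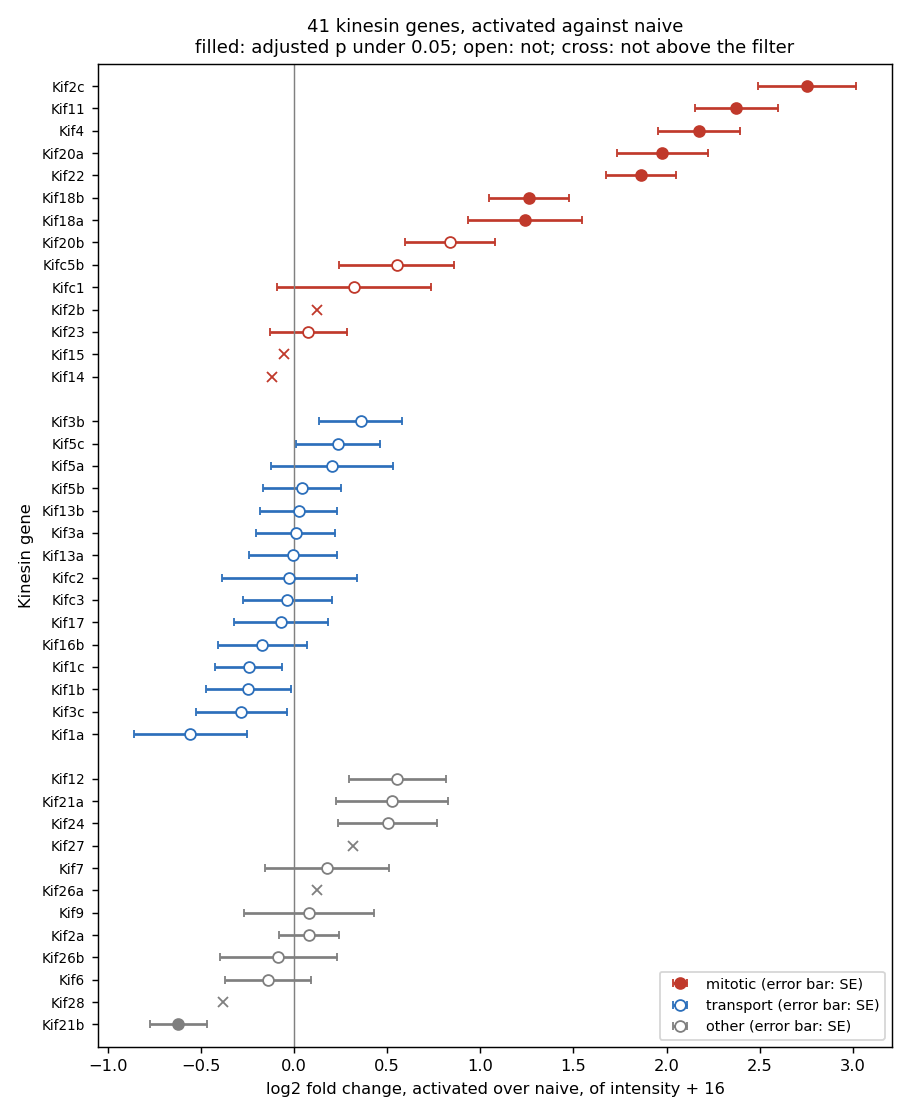
Log2 fold change of intensity + 16, activated over naive, for 41 kinesin genes by class, with error bars of 1 SE; filled points passed at an adjusted p under 0.05, open points did not, and crosses are genes not above the filter, from the fit without it. The 7 filled mitotic genes lie between 1.24 and 2.75, the 15 transport genes between -0.56 and 0.36, and the filled grey point is Kif21b at -0.62.

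The transport kinesins lay close to 0. Their median log2 fold change was -0.03, against -0.03 over all genes tested, and the median over the 14 mitotic genes without the filter was 1.04. Of the 15, 13 lay within 0.3 of 0, and 12 were above the filter intensity on every array. The 3 activated arrays were all above both naive arrays for 1 transport gene, Kif5c, and all below them for 2, Kif1c and Kif1a, where 16.5% and 18.1% of all genes did so. The same count was 8 of 14 above and 0 below for the mitotic genes.

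Kinesin-1 heavy chains carry mitochondria, granules and vesicles, often through light chains. Kif5b, the broadly expressed one, had 940.4, 912.5 and 674.5 on activated arrays and 971.7 and 672.2 on naive arrays. The groups overlapped, and the log2 fold change was 0.04 ± 0.21 (SE, adjusted p = 0.93). Its 6 probe sets were all above the filter and lay between -0.33 and 0.65, with 0 called. The neuronal Kif5c had 27.5, 27.0 and 28.7 on activated and 22.5 and 19.7 on naive arrays (log2 fold change 0.24, adjusted p = 0.58). Kif5a had 5.4 to 17.7 on activated and 3.5 and 15.5 on naive arrays, around the filter intensity. Among light chains, Klc1 had 160.4, 131.9 and 105.4 on activated and 142.9 and 115.8 on naive arrays, for a log2 fold change of 0.02 (adjusted p = 0.97).

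Kinesin-2, a heterotrimer of Kif3a, Kif3b or Kif3c and the associated protein Kifap3, carries cargo in the cytoplasm and in cilia. Kif3b had 132.6, 95.9 and 130.3 on activated arrays and 109.7 and 71.6 on naive arrays on the probe set used for the gene (log2 fold change 0.36, adjusted p = 0.37). On each of its other 3 probe sets the activated arrays lay above both naive arrays. Of these 1 passed the fit of single probe sets, with 80.5, 87.1 and 98.4 on activated arrays, against 44.7 and 47.2 on naive arrays (log2 fold change 0.75, adjusted p = 0.042). The mean of all 4 probe sets gave Kif3b a log2 fold change of 0.59 and an adjusted p of 0.042. Its partner Kifap3 had 50.9, 46.0 and 42.6 on activated arrays, against 22.4 and 32.3 on naive arrays, and did not pass (log2 fold change 0.54, adjusted p = 0.17). Kif3a had 38.2, 51.9 and 51.4 on activated and 43.6 and 49.4 on naive arrays (log2 fold change 0.01, adjusted p = 0.99). Kif3c had 132.3, 115.7 and 113.9 on activated and 207.2 and 107.2 on naive arrays (log2 fold change -0.28, adjusted p = 0.54).

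The kinesin-3 motors move vesicles and endosomes over long distances. Kif1b, a carrier of mitochondria and synaptic vesicle precursors, had 7 probe sets, all above the filter, with log2 fold changes between -0.24 and 0.15. Kif1c had 116.2, 112.6 and 104.6 on activated arrays, against 151.1 and 119.3 on naive arrays, and did not pass (log2 fold change -0.24, adjusted p = 0.46), though the groups did not overlap. The neuronal Kif1a had 1.4, 10.1 and 12.6 on activated and 21.9 and 15.5 on naive arrays (log2 fold change -0.56, adjusted p = 0.30). Kif13b, which binds the scaffold Dlg1, had 73.3, 52.5 and 54.3 on activated and 58.0 and 58.4 on naive arrays. Kif13b, Kif13a and the early endosome motor Kif16b had log2 fold changes between -0.17 and 0.02 on the probe sets used. Another probe set of Kif13a had 25.2, 19.7 and 23.6 on activated arrays, against 10.8 and 12.0 on naive arrays. It did not pass (log2 fold change 0.50, adjusted p = 0.24). A dimmer probe set of Kif13b had 2.8, 3.7 and 13.7 on activated arrays, against 22.8 and 18.8 on naive arrays, and did not pass (log2 fold change -0.72, adjusted p = 0.17). The remaining transport genes, Kif17, Kifc2 and Kifc3, lay between -0.07 and -0.03. Intensities of Kifc2 ranged more widely among naive arrays, at 9.5 and 43.5, than between the groups.

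**Figure D4:**
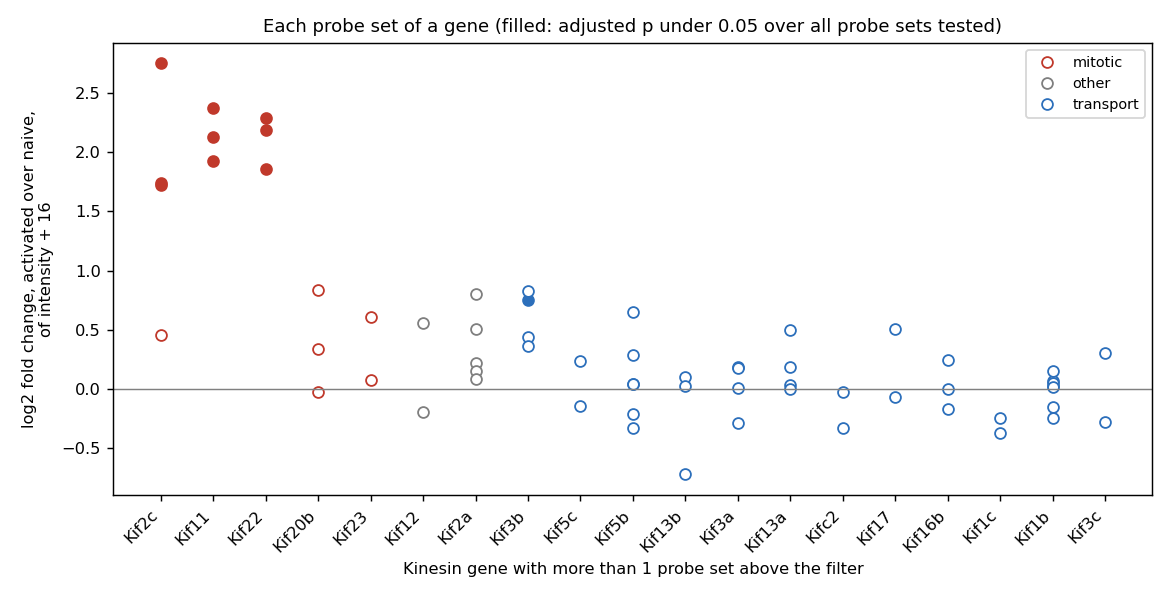
Log2 fold change of intensity + 16, activated over naive, of each probe set above the filter, for the 19 kinesin genes with more than 1 such probe set; filled points passed at an adjusted p under 0.05 over the 23722 probe sets tested. All 3 probe sets of Kif11 and of Kif22 and 3 of 4 of Kif2c are filled, and the single filled transport point is of Kif3b.

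Counted by probe set, 13 of 27 mitotic ones were higher, where 5.58% of probe sets tested were, and 1 of 54 transport ones was. Of the 23 probe sets of the other kinesins 1 was lower, that of Kif21b, where 3.07% of probe sets tested were. Probe sets of 1 gene share its transcripts and are not independent. The activated arrays were all above both naive arrays on 19 of 27 mitotic and 7 of 54 transport probe sets, against 16.7% of all probe sets with 1 symbol. They were all below both naive arrays on 0 of 27 mitotic and 5 of 54 transport probe sets, where 16.7% of all probe sets with 1 symbol were.

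Of the 12 kinesins in neither class 9 were tested, 0 were higher and 1 was lower, a count near the share of all tested genes, 6.36% higher and 4.14% lower. Kif21b, a motor that restrains microtubule growth, fell, with 303.1, 268.9 and 289.3 on activated arrays, against 443.6 and 456.0 on naive arrays. The groups did not overlap, and the log2 fold change was -0.62 ± 0.15 (SE, adjusted p = 0.028). This call was lost in 7 of 17 alternatives, among them the mean of both its probe sets, at -0.30 (adjusted p = 0.22), median centring (adjusted p = 0.064), no intensity trend (adjusted p = 0.072) and leaving out activated replicate 2 or 3 or either naive array, with log2 fold changes of -0.58, -0.63, -0.64 and -0.60. Kif21a, its paralog, had 20.8, 6.9 and 13.0 on activated and 3.5 and 4.8 on naive arrays, and its log2 fold change of 0.53 did not pass (adjusted p = 0.32).

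Kif2a is a kinesin-13 like Kif2c but is also used outside mitosis. The probe set used for Kif2a had 220.7, 235.7 and 206.0 on activated and 206.5 and 209.0 on naive arrays, which gave 0.08 ± 0.16 on the log2 scale (SE, adjusted p = 0.82). Another had 120.3, 91.2 and 77.7 on activated arrays, against 47.9 and 47.7 on naive arrays, and yet another had 133.7, 119.0 and 119.4 on activated arrays, against 83.2 and 81.4 on naive arrays. Those 2 did not overlap between the groups and gave log2 fold changes of 0.80 (adjusted p = 0.051) and 0.51 (adjusted p = 0.12). All 5 probe sets of Kif2a had positive values and 0 passed.

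Kif24, a kinesin-13 relative at centrioles, had 33.7, 42.9 and 34.2 on activated arrays, against 31.6 and 13.1 on naive arrays (log2 fold change 0.50, adjusted p = 0.28). Kif12 had 19.9 to 21.9 on activated arrays, against 13.2 and 5.5 on naive arrays (log2 fold change 0.55, adjusted p = 0.23). Its other probe set went the other way, with 1.4, 1.6 and 13.2 on activated and 14.5 and 2.6 on naive arrays (log2 fold change -0.20, adjusted p = 0.79). Of the rest, several of them known from cilia or Hedgehog signalling, Kif6, Kif7, Kif9 and Kif26b were tested, with log2 fold changes between -0.14 and 0.18, and 0 passed. Kif26a, Kif27 and Kif28 were not above the filter on at least 2 arrays, with no value over 13.5 on any of them.

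Most genes that work with mitotic kinesins rose too. Of 27 spindle and cytokinesis genes, all tested, 25 were higher and 1 lower, where 6.36% of tested genes were higher and 4.14% lower, with a median log2 fold change of 2.01. Of the 27, 6 had both naive arrays below the filter intensity and were tested through the activated arrays alone. Without the filter 25 were higher and 0 lower, where 3.42% of all genes were higher. Among them is Cenpe, the kinesin-7 that carries chromosomes to the spindle's middle and is a kinesin outside the Kif symbols. It had 89.9, 131.2 and 126.5 on activated arrays, against 20.3 and 9.3 on naive arrays, and rose by 2.11 ± 0.24 on the log2 scale (SE, adjusted p = 3.4e-04). The largest rises at the pseudocount of 16 were those of Birc5, the survivin subunit of the passenger complex that Kif20a moves, by 3.26, of Nusap1, which bundles spindle microtubules, by 3.20, and of the checkpoint kinase Bub1b, by 3.13. Bub1b was at 1.9 and 1.7 on naive arrays, below the filter intensity, so its size and its place in this order depend on the pseudocount. The gene that fell, though not without the filter, was Numa1, which anchors spindle poles and is also a nuclear matrix protein, with 640.2, 654.9 and 766.0 on activated arrays, against 965.4 and 1141 on naive arrays (log2 fold change -0.60, adjusted p = 0.041).

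The other lists had 0 or 1 calls in each direction, to be read against 6.36% of tested genes higher and 4.14% lower. Of 17 tested light chains and cargo adaptors 0 were higher and 1 was lower, Jakmip1, a microtubule-binding protein, by 0.91, with 486.0, 571.6 and 518.3 on activated arrays, against 963.5 and 1037 on naive arrays (adjusted p = 0.0039). Their median log2 fold change was -0.13. Of 22 tested genes of dynein, the minus-end motor, and its activators 1 was higher, the light chain Dynlt3, by 0.87 (adjusted p = 0.039), and 0 were lower, with a median of 0.08. Among 13 tested tubulins the beta tubulin Tubb5 rose, with 2551, 2117 and 1977 on activated arrays, against 1391 and 1164 on naive arrays (log2 fold change 0.78, adjusted p = 0.016). The alpha tubulin Tuba4a fell, with 2489, 2005 and 1911 on activated arrays, against 3483 and 3674 on naive arrays (log2 fold change -0.75, adjusted p = 0.019). Without the filter the calls of Dynlt3 and Tuba4a were lost, and those of Jakmip1 and Tubb5 were not.

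**Figure D5:**
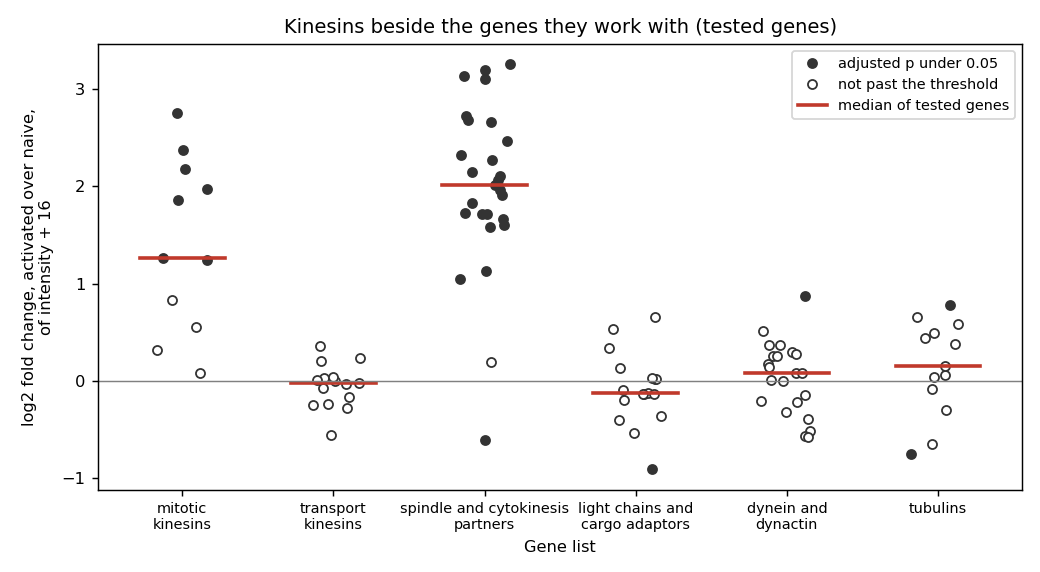
Log2 fold change of intensity + 16, activated over naive, of the tested genes of 6 lists, with filled points past an adjusted p under 0.05 and red lines at the median. The median is 1.26 for 11 tested mitotic kinesins, 2.01 for 27 spindle and cytokinesis partners, and between -0.13 and 0.15 for transport kinesins, adaptors, dynein and tubulins.

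The arrays also differed in a control, in a way seen only in the data. The hybridisation control bioC was bright on activated replicates 1 and 2 and naive replicate 1, with means of 639 to 725, and dimmer on activated replicate 3 and naive replicate 2, with 172 and 209. Within the bright side the log2 differences of the 7 risers, with no test, were between 1.12 and 2.63, and within the dim side between 0.998 and 2.89. The first side holds 2 activated arrays and 1 naive array and the second 1 of each, so no test was possible within either. With the split as a block, added after seeing the data, 8 mitotic and 0 transport genes were called, and what the control's difference reflects was not tested.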

How the data were processed

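RNA of 5 samples, 3 activated and 2 naive, was hybridised as labelled copy RNA from 6 µg of total RNA each to a mouse expression array with 45101 probe sets, per the labels. The deposited values are linear intensities, which the authors had scaled so that each array's trimmed mean is near 100, as the values show; how probes were summarised is not stated in the labels. Of the probe sets 34945 had 1 gene symbol in the platform annotation, 932 had several and 9160 none, and 64 controls were left out. No counts lie behind these values.

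From the deposited intensities, log2(intensity + 16) was taken, with no further normalization. Each of 18193 genes was represented by its probe set with the highest mean. Genes above the 40th percentile of an array on at least 2 of the 5 arrays, 12873 in all, were fitted with limma 3.58.1 in R 4.3.3 (lmFit, and eBayes with an intensity trend), and p-values were adjusted by the Benjamini-Hochberg method over all of them at a threshold of 0.05. The residual degrees of freedom were 3. Differences are activated minus naive. The labels call the samples independent experiments, and no pair of arrays shared more than 0.947% of its values. The steps were tested on simulated data. The alternatives were quantile normalization, median centring, other filters and pseudocounts, other choices of probe set, other variance models, a replicate block, wider classes and leaving out each array.

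The members, classes, gene lists and alternatives were chosen with earlier results of these data known. Any kinesin could be named, and from each other list the 3 largest rises and falls among called genes, with Cenpe, Klc1 and Kifap3. Promoters of RefSeq build GRCm38.p6 were searched in Python 3.11.15. Symbols of all 41 genes matched RefSeq.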

Additional observations from a re-analysis of the deposited data

How the results depend on the processing

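Of 562 values of single kinesin genes under 17 alternatives, 505 kept their sign and call, 13 lost a call, 5 gained one and 39, of 15 genes, turned their sign; none of those 15 genes was called. Kif2c, Kif11, Kif4, Kif20a, Kif22 and Kif18b kept their calls in every alternative run on them. The count of mitotic genes called was 6 to 8 except with every probe set as its own unit, where it was 13, with 2051 units called in all and a mitotic median of 1.72. That median was 1.04 without the filter, 1.56 with the filter at the 60th percentile, 1.83 with a pseudocount of 1 and 0.65 with 64, and the size of a change in dim genes therefore depends on the pseudocount. Transport kinesins called were 1 with the mean of all probe sets and with every probe set its own unit (Kif3b), and 1 with the classes widened, which moved Kif21b there. The other kinesins called were 0 with median centring, the mean of all probe sets, no intensity trend and widened classes. Leaving out each array in turn gave 643 to 1198 genes called (796 without activated replicate 2, 875 without naive replicate 1 and 643 without naive replicate 2), 6 to 8 mitotic, 0 transport and 0 to 1 other genes called, and a mitotic median of 1.17 to 1.56.

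The samples share only replicate numbers: deviations of same-numbered samples from their group means correlated at 0.17 for number 1 and -0.13 for number 2. With 2 naive arrays, their deviations are equal and opposite. The 2 correlations are thus not independent, and they cannot decide whether same-numbered samples are paired. With the replicate block 1770 genes were called, 7 mitotic, 0 transport and 1 other among them, and the mitotic median was 1.35. Replicate number 3 exists only among activated arrays, so the block takes up that array. The fold changes of single genes were therefore those found without activated replicate 3, as for Kif11, with 2.32 in both. These alternatives are not separate checks, and both are counted among the values of single genes above. The bioC block, chosen after seeing the data, gave 1948 genes.

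Signs turned at these log2 fold changes. With quantile normalization Kif13b was at -0.0075 and Kif3a at -0.019. With a pseudocount of 1 Kifc2 was at 0.077. With the mean of all probe sets Kif13a was at 0.20, Kif13b at -0.051, Kif16b at 0.026, Kif17 at 0.15, Kif1c at 0.0055 and Kif3c at 0.0086. Without shared-sequence probe sets Kif16b was at 0.0014. With the replicate block Kif26b was at 0.077, Kif3a at -0.041 and Kifc1 at -0.17. With the bioC block Kif13a was at 0.0022, Kif5b at -0.037, Kif9 at -0.0064 and Kifc2 at 0.061. Leaving out each array gave ranges of -0.054 to 0.082 for Kif13a, -0.097 to 0.095 for Kif13b, -0.38 to 0.036 for Kif16b, -0.23 to 0.031 for Kif17, -0.020 to 0.26 for Kif23 and -0.39 to 0.077 for Kif26b. They were -0.058 to 0.12 for Kif3a, -0.71 to 0.15 for Kif3c, -0.14 to 0.55 for Kif5a, -0.22 to 0.30 for Kif5b, -0.51 to 0.67 for Kif9, -0.17 to 0.58 for Kifc1, -0.67 to 0.14 for Kifc2 and -0.11 to 0.042 for Kifc3. The cause was not tested.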
